A study of Mus musculus with 18 samples.

Results

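Small extracellular vesicles (sEVs) released by primary mouse microglia were compared with sEVs released by primary mouse neurons, by the messenger RNA they carried. The comparison used 6 of the 18 libraries of the series, 3 of microglia-derived sEVs and 3 of neuron-derived sEVs, and the 12-library fits described further on added the 3 libraries of microglia cells and the 3 of neuron cells. All 4 groups came from primary cultures of mouse brain and carried no treatment, transgene or mutation that the labels name. The cells are those that released the vesicles, and their RNA was extracted with another kit than that of the sEVs. Strain, age and time in culture are not given in the sources used here, nor is it stated that replicates came from separate cultures. The p-values therefore reflect the spread between these samples, which may be technical. A gene was tested when at least 3 of the 6 sEV libraries had a normalized count of at least 10, which kept 14687 of the 54307 genes in the table. A normalized count is the authors' estimated read count of a gene after normalization between libraries. Whether the scaling was the same for all genes of a library is not known here. Division by transcript length is not stated, so values are compared between libraries within a gene.

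Small extracellular vesicles are membrane-bound particles that bud into endosomes or from the plasma membrane and reach other cells through the fluid around them. They carry proteins, lipids and RNA of the cell that made them, and in brain they are studied as a route between glia and neurons. Microglia are the resident macrophages of the brain, which sense damage and infection through pattern-recognition receptors, engulf debris and secrete cytokines. Neurons carry long processes, and many of their mRNAs are moved to axons and dendrites bound to proteins.

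The sEV libraries of the 2 cell types differed in most of what was measured. Of the 14687 genes tested, 2291 were higher in microglia sEVs (15.6%) and 6421 were lower (43.7%), so that 59.3% were called at an adjusted p under 0.05 (limma with Benjamini-Hochberg adjustment). Each count of list members called further on is to be read beside these shares. The microglia and neuron libraries did not overlap in 71.3% of the genes, with microglia sEVs above in 18% and below in 53.3%. The median log2 difference, microglia sEVs minus neuron sEVs, was -2.89. Many of these genes were listed at 0. Of the genes called lower, 3216 were at 0 in all 3 microglia sEV libraries. Of the genes called higher, 299 were at 0 in all 3 neuron sEV libraries. Such a gene passes the filter only with 10 or more in all 3 libraries of the other group, and every such gene tested was called. These calls, also those of list members further on, are therefore a description only. Among the 6746 genes above 0 in all 6 libraries, 1748 were called higher and 1657 lower, with a median of -0.13. Under quantile normalization, which gives all 6 libraries the same distribution, the split was 3621 higher and 3583 lower and the median of all genes was 0.02, a shift of the whole table that each direction given here has to be read against.

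Fewer genes were found in microglia sEVs. These libraries held 7840, 9865 and 10059 genes at 10 or more, against 15157, 15951 and 15771 genes in the neuron sEV libraries (two-sided exact permutation test, p = 0.1, the smallest that 3 against 3 libraries allow, adjusted p = 0.12 over 18 library measures). Total normalized counts were alike, 53956745 to 54740814 in microglia sEVs and 50922667 to 54012400 in neuron sEVs. Across the genes tested, libraries of microglia sEVs correlated with each other at r = 0.776 to 0.811, libraries of neuron sEVs at 0.917 to 0.939, and libraries of different groups at 0.225 to 0.307. Read depth could not be recovered from the values, so an exact 0 is given as listed at 0. A 0 in microglia sEVs can stand for a gene the cells express, because 715 of the 3216 genes were at 10 or more in all 3 microglia cell libraries. In these bulk samples fewer vesicles or cells of a type and less RNA in each cannot be told apart.

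**Figure D1:**
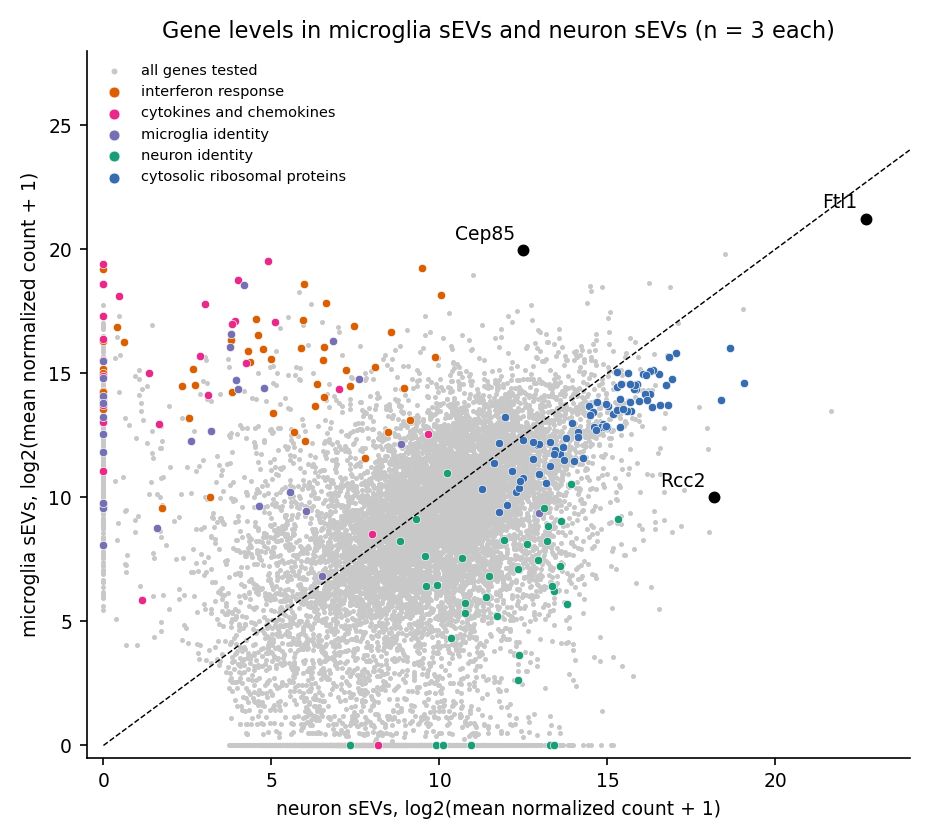
Mean normalized count of each gene in microglia sEVs (vertical axis) and in neuron sEVs (horizontal axis), both as log2 of the mean plus 1, with 3 libraries in each group; each point is 1 of the 14687 genes tested and the dashed line marks equal levels. Interferon genes lie above the line and cytokine and microglia genes mostly above it. Several of these genes lie on the left edge at 0 in neuron sEVs. Neuron and ribosomal protein genes lie mostly below the line. Ftl1, Rcc2 and Cep85 are named.

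The labels were first checked against cell type markers. Of 35 microglia identity genes, 29 were tested, and 27 of these were higher in microglia sEVs and 1 was lower. The median log2 difference was 10.69, against -2.89 for all genes tested. Of the 35, 17 were listed at 0 in all 3 neuron sEV libraries. Those of them tested passed the filter only through the microglia sEV libraries, so their calls are a description only. Irf8, a transcription factor that microglia need, had 67544, 64924 and 75228 normalized counts in microglia sEVs, against 13.9, 16.3 and 8.02 in neuron sEVs (log2 difference 12.35 ± 0.36 SE, limma adjusted p = 1.25e-05). Trem2, a lipid receptor of microglia, had 19301, 14982 and 16742 normalized counts in microglia sEVs and was listed at 0 in all 3 neuron sEV libraries. The myeloid transcription factor gene Spi1 and the protease gene Ctss were likewise listed at 0 in every neuron sEV library, with 13789 to 20383 and 39345 to 58155 normalized counts in microglia sEVs. The groups did not overlap for any of these 4 genes.

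Markers of resting microglia were on the same list. Csf1r, the receptor that keeps microglia alive, had 1396, 400 and 625 normalized counts in microglia sEVs, against 48.3, 0 and 23.2 in neuron sEVs. Its log2 difference of 6.06 ± 1.62 had an adjusted p of 0.0225 in limma, and of 0.055, 0.0509 and 0.0539 without microglia sEV replicate 1, microglia sEV replicate 3 or neuron sEV replicate 3. P2ry12, the nucleotide receptor of resting microglia, had 869, 153 and 270 normalized counts, against 0, 0 and 6.05. Tmem119, another marker of resting microglia, was listed at 0 in all 6 sEV libraries, and the fractalkine receptor gene Cx3cr1 was at 1.26, 456 and 1006 in microglia sEVs and at 0 in the neuron sEV libraries, so neither entered the test. In microglia cells these genes were present, Tmem119 at 135 to 453 and Cx3cr1 at 939 to 1627 normalized counts. The exception within the list was Sall1, a transcription factor of microglia that neural progenitors also use. It fell in microglia sEVs, with 209, 902 and 876 normalized counts, against 6128, 7274 and 10462 in neuron sEVs (log2 difference -3.82 ± 0.65, adjusted p = 0.0039).

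Of 18 listed marker genes of other macrophages and monocytes, 10 stayed under the filter on low values, 9 were listed at 0 in all microglia sEV libraries and 13 at 0 in all neuron sEV libraries. The 8 tested passed the filter mainly through the microglia sEV libraries, so their calls (7 higher, none lower) are a description only. Ms4a7, a membrane protein gene of border macrophages that cultured microglia can express, had 52696, 50508 and 49830 normalized counts in microglia sEVs and was listed at 0 in neuron sEVs. The summed normalized counts of this list came to 0.139 to 0.151% of the microglia sEV libraries, and of the neuron sEV libraries to at most 9.55e-05%.

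The neuron label was checked in the same way. Of 35 neuron identity genes, all tested, 26 were lower in microglia sEVs and none was called higher, with a median of -8.23. At 0 in all 3 microglia sEV libraries were 6 of the 35. These passed the filter only through the neuron sEV libraries, so their calls are a description only. Dcx, a microtubule-binding protein gene of young neurons, was listed at 0 in all 3 microglia sEV libraries and had 11271, 12290 and 6612 normalized counts in neuron sEVs. Stmn2, a growth cone protein gene, had 0, 853 and 800 normalized counts in microglia sEVs, against 48184, 36104 and 38935 in neuron sEVs. Its log2 difference was -8.85 ± 2.78 with an adjusted p of 0.0382. Without microglia sEV replicate 1, the library at 0, it was -5.62, and leaving out neuron sEV replicates 1, 2 or 3 gave adjusted p-values of 0.11, 0.105 and 0.111. For Map2 and Snap25, a dendrite protein gene and a synaptic fusion protein gene, the groups did not overlap and the adjusted p was 0.0685 and 0.1, each with microglia sEV replicate 1 at 0 and the other two between 434 and 993.

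The neuron sEVs also carried markers of other brain cells. Of 24 astrocyte marker genes tested, 17 were lower in microglia sEVs and 1 was higher, with a median of -6.93. Gfap, the filament protein gene of astrocytes, had 2231, 2513 and 1087 normalized counts in microglia sEVs, against 58029, 86029 and 79279 in neuron sEVs (log2 difference -5.33 ± 0.36, adjusted p = 6.89e-05). Slc1a2, the glutamate transporter gene of astrocytes, had 0, 40.3 and 0 normalized counts in microglia sEVs, against 10095, 19896 and 18152. Of the 26 astrocyte genes listed, 11 were at 0 in all 3 microglia sEV libraries. The whole list made up 0.0206 to 0.0263% of the microglia sEV libraries and 0.259 to 0.388% of the neuron sEV libraries. The neuron identity list made up 0.369 to 0.492% of the neuron sEV libraries. In the neuron cell libraries the astrocyte list made up 0.753 to 0.833% and the neuron identity list 2.61 to 2.71%. The part of glial RNA in the differences between these groups was not tested.

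The member higher in microglia sEVs was Glul, the glutamine synthetase gene, with 5612, 4059 and 6335 normalized counts, against 1710, 3129 and 3285 in neuron sEVs (log2 difference 1.01 ± 0.34, adjusted p = 0.0459). That call was lost with any library except microglia sEV replicate 2 left out (adjusted p from 0.0637 to 0.119). Of 12 genes of the oligodendrocyte lineage tested, 7 were lower and 1 higher, beside 43.7% lower and 15.6% higher of all genes tested. Olig2, a transcription factor gene of that lineage, was listed at 0 in microglia sEVs and had 3359, 3787 and 4149 normalized counts in neuron sEVs. Olig2 and Sox10, which define the lineage, were at 0 in every microglia sEV library, as were 11 of the 18 genes listed. The list made up 0.00470 to 0.00803% of the microglia sEV libraries and 0.0494 to 0.0669% of the neuron sEV libraries. In the neuron cell libraries it made up 0.0965 to 0.298%. The exception was Mag, a myelin protein gene, with 647, 11.1 and 156 normalized counts, against 0, 4.56 and 3.29. Its adjusted p was 0.0363, and 0.0652 to 0.127 without any library except microglia sEV replicate 2.

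**Figure D2:**
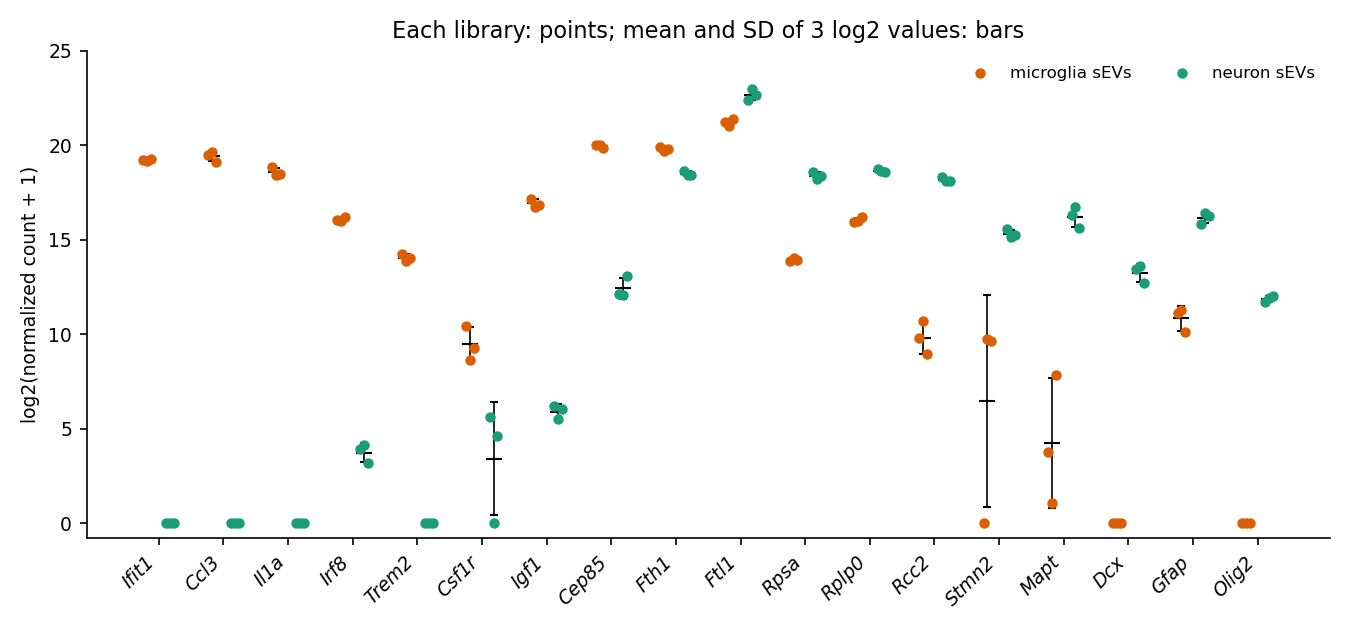
Each of 18 genes in each sEV library, as log2 of the normalized count plus 1, with microglia sEVs on the left and neuron sEVs on the right of each gene; points are libraries and bars give the mean and SD of the 3 log2 values. Ifit1, Ccl3, Il1a and Trem2 sit at 0 in all 3 neuron sEV libraries and Dcx and Olig2 at 0 in all 3 microglia sEV libraries. Stmn2 and Mapt spread most among the microglia sEV libraries.

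Interferon genes were higher in microglia sEVs. The interferon response is the set of antiviral genes that type I interferon switches on through its receptor. All 50 members tested of 52 listed were higher in microglia sEVs, also under quantile normalization, with a median log2 difference of 11.59. Of the genes listed, 11 were at 0 in all 3 neuron sEV libraries, and the calls of those tested are a description only. Together they made up 7.24 to 7.94% of the normalized counts of microglia sEVs and 0.0106 to 0.0157% of those of neuron sEVs. Ifit1, which binds viral RNA ends, had 615521, 581262 and 628778 normalized counts in microglia sEVs and was listed at 0 in all neuron sEV libraries, and Ifi205 and Ifi211, nucleic acid sensors of the same family as each other, were listed at 0 there too. Ifit2, a relative of Ifit1, had 616852, 562340 and 685586 normalized counts, against 458, 713 and 980 in neuron sEVs (log2 difference 9.82 ± 0.29, adjusted p = 1.25e-05). The guanylate-binding protein gene Gbp2 had 217389, 240931 and 250234 normalized counts, against 249, 5.26 and 37. Its log2 difference of 12.56 ± 1.33 was the largest rise among named genes above 0 in all 6 libraries, with adjusted p = 4.80e-04.

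Enzymes and GTPases of the response were among them. Cmpk2, a mitochondrial nucleotide kinase gene, had 260167, 244310 and 364900 normalized counts in microglia sEVs, against 1161, 954 and 1084 in neuron sEVs (log2 difference 8.07 ± 0.18). The antiviral GTPase genes Iigp1 and Mx1 had 118107 to 121079 and 30370 to 34551 normalized counts in microglia sEVs. In neuron sEVs Mx1 was listed at 0 throughout and Iigp1 at 1.01, 0 and 0. Samhd1, which breaks down nucleotides that viruses need, and Xaf1, a gene of cell death, were among the 12 largest rises, by 9.94 ± 0.64 and 10.26 ± 0.40 on the log2 scale.

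The promoters of the interferon genes are shown because so many of them moved together. RefSeq promoters (build GRCm38.p6, 250 bases before to 50 bases after the annotated start, on the strand of the gene) matched 36 of the 50 members tested. The core of the interferon-stimulated response element, GAAA and GAAA with any 2 bases between them, was searched on both strands, and a promoter with more than 1 match, overlapping or not, was counted once. It occurred in 22 of the 36 (61.1%), against 3.99% of 27025 genes with a promoter. Among all genes called higher in microglia sEVs the share was 8.41% (150 of 1783), and among those called lower 2.96% (134 of 4522). The 4 members with a match that had the most normalized counts in microglia sEVs follow, 5′ to 3′, with the matches in capitals. All matches lay on the opposite strand and so read TTTC, 2 bases, TTTC. A match in these letters is not evidence of binding.
Ifit1 (chr19:34640639-34640938, plus strand): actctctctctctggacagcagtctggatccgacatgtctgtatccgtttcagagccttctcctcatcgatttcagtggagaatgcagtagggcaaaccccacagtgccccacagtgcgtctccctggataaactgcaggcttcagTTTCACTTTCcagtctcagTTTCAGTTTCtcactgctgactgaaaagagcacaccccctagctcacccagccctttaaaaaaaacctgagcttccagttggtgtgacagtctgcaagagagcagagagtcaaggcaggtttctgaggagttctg
Ifit3 (chr19:34583279-34583578, plus strand): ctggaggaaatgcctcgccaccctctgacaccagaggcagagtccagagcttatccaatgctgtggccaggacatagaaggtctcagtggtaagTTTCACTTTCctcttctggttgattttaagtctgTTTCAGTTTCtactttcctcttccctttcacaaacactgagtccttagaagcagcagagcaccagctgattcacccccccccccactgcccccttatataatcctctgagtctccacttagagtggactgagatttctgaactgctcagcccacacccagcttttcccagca
Gbp2 (chr3:142620413-142620712, plus strand): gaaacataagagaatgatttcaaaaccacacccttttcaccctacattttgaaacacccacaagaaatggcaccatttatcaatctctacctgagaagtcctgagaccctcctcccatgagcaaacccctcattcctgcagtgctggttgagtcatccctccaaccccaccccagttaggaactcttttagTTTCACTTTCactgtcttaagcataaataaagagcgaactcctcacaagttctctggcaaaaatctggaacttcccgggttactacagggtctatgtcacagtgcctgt
Rsad2 (chr12:26456403-26456702, minus strand): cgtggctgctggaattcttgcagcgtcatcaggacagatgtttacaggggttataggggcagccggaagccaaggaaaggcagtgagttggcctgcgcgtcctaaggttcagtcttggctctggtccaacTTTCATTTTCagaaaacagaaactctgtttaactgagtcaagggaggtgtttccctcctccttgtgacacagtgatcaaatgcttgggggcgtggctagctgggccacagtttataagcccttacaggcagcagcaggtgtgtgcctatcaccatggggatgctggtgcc

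Beside these sequences stand the values of the same genes. Ifit3, another RNA-binding relative of Ifit1, had 397068, 357517 and 442942 normalized counts in microglia sEVs, against 0, 183 and 0 in neuron sEVs. Rsad2, which makes an antiviral nucleotide, had 179378, 141900 and 121000 normalized counts, against 0, 66.7 and 0. The nearest match began 85 bases before the start of Ifit1, 122 bases before that of Ifit3, 59 bases before that of Gbp2 and 120 bases before that of Rsad2.

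Cytokine and chemokine mRNAs formed the second group. Of 27 members tested, 25 were higher in microglia sEVs and 1 was lower, with a median log2 difference of 14.18 (11.85 with a pseudocount of 10). At 0 in all neuron sEV libraries were 14 of the 31 listed. Those of the 14 that were tested passed the filter only through the microglia sEV libraries, so their calls are a description only. They took 6.96 to 8.13% of the normalized counts of microglia sEVs and 0.00294 to 0.00318% of those of neuron sEVs. Ccl3, a chemokine gene that draws leukocytes, had 727688, 806912 and 570252 normalized counts in microglia sEVs and Il1a, an inflammatory cytokine gene, had 472834, 355898 and 360964, and both were listed at 0 in neuron sEVs. The chemokine genes Ccl7 and Ccl12 were listed at 0 in neuron sEVs as well, with 355129 to 450832 and 131036 to 209661 normalized counts in microglia sEVs.

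Ccl4, which signals through the same receptor as Ccl3, had 875291, 735542 and 679619 normalized counts in microglia sEVs, against 56.9, 29.9 and 0 in neuron sEVs (log2 difference 15.93 ± 1.57, adjusted p = 3.54e-04). Tnf and Il1b, the main inflammatory cytokine genes of macrophages, had 47286 to 62795 and 115858 to 161567 normalized counts, against 0, 18.9 and 0 for Tnf and 0, 43.7 and 57.4 for Il1b. Every microglia sEV library stood above every neuron sEV library for these genes. The member that fell was Lif, a cytokine gene of the interleukin 6 family, which was listed at 0 in microglia sEVs and had 218, 267 and 373 normalized counts in neuron sEVs, although microglia cells had 165, 416 and 519. That call was not kept under quantile normalization (adjusted p = 0.111). For Csf1, which feeds microglia, the groups overlapped, at 1027, 35.7 and 27.4 in microglia sEVs and 277, 246 and 242 in neuron sEVs.

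A form of the site of NF-kB (the transcription factor of inflammatory signalling), GGGA and TTTCC with any 1 base between them, occurred on either strand in 4 of the 21 cytokine promoters matched (19%), against 0.466% of all 27025 genes with a promoter. The members with a match that had the most normalized counts in microglia sEVs are shown, with the match in capitals. It began 44 bases before the start of Il6 and 71 bases before that of Cxcl1. Il6, the gene of an acute phase cytokine, had 19878, 18365 and 15433 normalized counts in microglia sEVs, against 0, 0 and 22.9 in neuron sEVs. The neutrophil chemokine gene Cxcl1 had 19733, 11594 and 9443 and was listed at 0 in neuron sEVs.
Il6 (chr5:30012864-30013163, plus strand): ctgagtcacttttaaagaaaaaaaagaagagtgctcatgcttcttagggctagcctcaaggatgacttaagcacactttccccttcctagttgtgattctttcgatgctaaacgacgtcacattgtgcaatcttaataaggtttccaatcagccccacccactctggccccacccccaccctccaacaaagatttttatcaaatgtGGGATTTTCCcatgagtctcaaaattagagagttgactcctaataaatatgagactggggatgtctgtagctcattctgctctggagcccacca
Cxcl1 (chr5:90890995-90891294, plus strand): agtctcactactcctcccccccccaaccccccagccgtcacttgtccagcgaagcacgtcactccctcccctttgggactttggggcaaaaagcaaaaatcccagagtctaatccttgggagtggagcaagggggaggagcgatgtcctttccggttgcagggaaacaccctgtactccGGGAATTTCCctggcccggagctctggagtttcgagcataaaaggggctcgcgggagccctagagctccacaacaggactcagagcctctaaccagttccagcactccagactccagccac

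Genes that sense microbes and relay the signal to NF-kB followed the cytokines. Of 34 Toll-like receptor, adaptor and NF-kB genes tested, 29 were higher and 1 was lower, with a median of 7.78. Nfkbia, which encodes the inhibitor of NF-kB and is switched on by it, had 92354, 93426 and 97987 normalized counts in microglia sEVs, against 631, 635 and 990 in neuron sEVs (log2 difference 7.01 ± 0.21, adjusted p = 1.25e-05). Nlrp3, the inflammasome sensor gene, had 2037 to 3545 normalized counts and Tnip3, a gene that restrains NF-kB, 56711 to 63182, and both were listed at 0 in neuron sEVs. The member that fell was Irak1, a kinase gene of the pathway, with 1071, 1270 and 960 normalized counts, against 1934, 2991 and 3347 (log2 difference -1.30 ± 0.30, adjusted p = 0.0138, and 0.0779 under quantile normalization).

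Genes of phagocytosis and of leukocyte signalling were nearly all higher. In the complement, Fc receptor and phagocytosis list 23 of 26 members tested were higher and 1 was lower, with a median of 13.40. In the list of the NADPH oxidase, the enzyme that makes superoxide, 6 of 6 were higher. Among leukocyte signalling and actin regulator genes 33 of 35 were higher and 1 lower. At 0 in all 3 neuron sEV libraries were 16 of the 30 genes of the first list and 19 of the 38 leukocyte genes. Those of them tested passed the filter only through the microglia sEV libraries, so their calls are a description only. C1qb and C1qc, which encode chains of the first complement component, had 64802 to 78863 and 37265 to 55411 normalized counts in microglia sEVs and were listed at 0 in neuron sEVs. Cyba, a membrane subunit gene of the oxidase, had 38179, 31796 and 29654 normalized counts, against 149, 247 and 266 in neuron sEVs (log2 difference 7.26 ± 0.29). Plek, a substrate of protein kinase C in blood cells, had 236863, 209759 and 243410, against 82.3, 23.7 and 109 (log2 difference 11.88 ± 0.59).

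The members of these lists that fell were Scarb2 and Sla. Scarb2, a lysosomal membrane protein gene, had 470, 351 and 532 normalized counts in microglia sEVs, against 859, 1030 and 904, with an adjusted p of 0.0414 that became 0.0637 to 0.118 without microglia sEV replicate 2 or any neuron sEV library. Its log2 difference was -1.06 as deposited and 0.0009 under quantile normalization. Sla, an adaptor gene of lymphocytes, had 522, 0 and 0, against 3406, 3019 and 1615 (adjusted p = 0.0397, and 0.0996 to 0.117 without any library except microglia sEV replicate 1).

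Genes of antigen presentation followed. Of 20 genes of MHC class I presentation tested, which shows peptides from inside the cell, 18 were higher and none lower, with a median of 5.17. B2m, the invariant chain gene of class I, had 77556, 57156 and 45310 normalized counts in microglia sEVs, against 657, 732 and 662 in neuron sEVs (log2 difference 6.42 ± 0.22). Psmb8, a catalytic subunit gene of the immunoproteasome, had 76089, 75200 and 63483, against 75.3, 60.5 and 66 (log2 difference 10.04 ± 0.21). Of 12 class II genes and costimulators listed, 6 were tested, and 4 of these were higher and 1 was lower. Of the 12, 7 were listed at 0 in all 3 microglia sEV libraries and 7 in all 3 neuron sEV libraries. No direction is given for the list. Cd40 and Cd86, which encode costimulators of T cells, were listed at 0 in neuron sEVs, with 28765 to 36590 and 13430 to 14884 normalized counts in microglia sEVs. H2-Eb1, which encodes a class II chain, was listed at 0 in microglia sEVs and had 13.8, 46.6 and 76 in neuron sEVs, a direction that turned under quantile normalization.

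Lysosomal genes were mixed. Of 40 tested, 21 were higher and 5 lower, with a median of 1.96, beside 15.6% higher and 43.7% lower of all genes tested. Ctsb and Ctsz, which encode lysosomal proteases, were higher by 7.06 ± 0.30 and 7.27 ± 0.34 on the log2 scale. Ctsb had 249324, 109812 and 165987 normalized counts in microglia sEVs, against 1314, 1179 and 1240. Npc1, the cholesterol exporter gene of lysosomes, was listed at 0 in all 3 microglia sEV libraries and had 394, 502 and 700 in neuron sEVs, although microglia cells had 2105 to 2606 normalized counts.

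**Figure D3:**
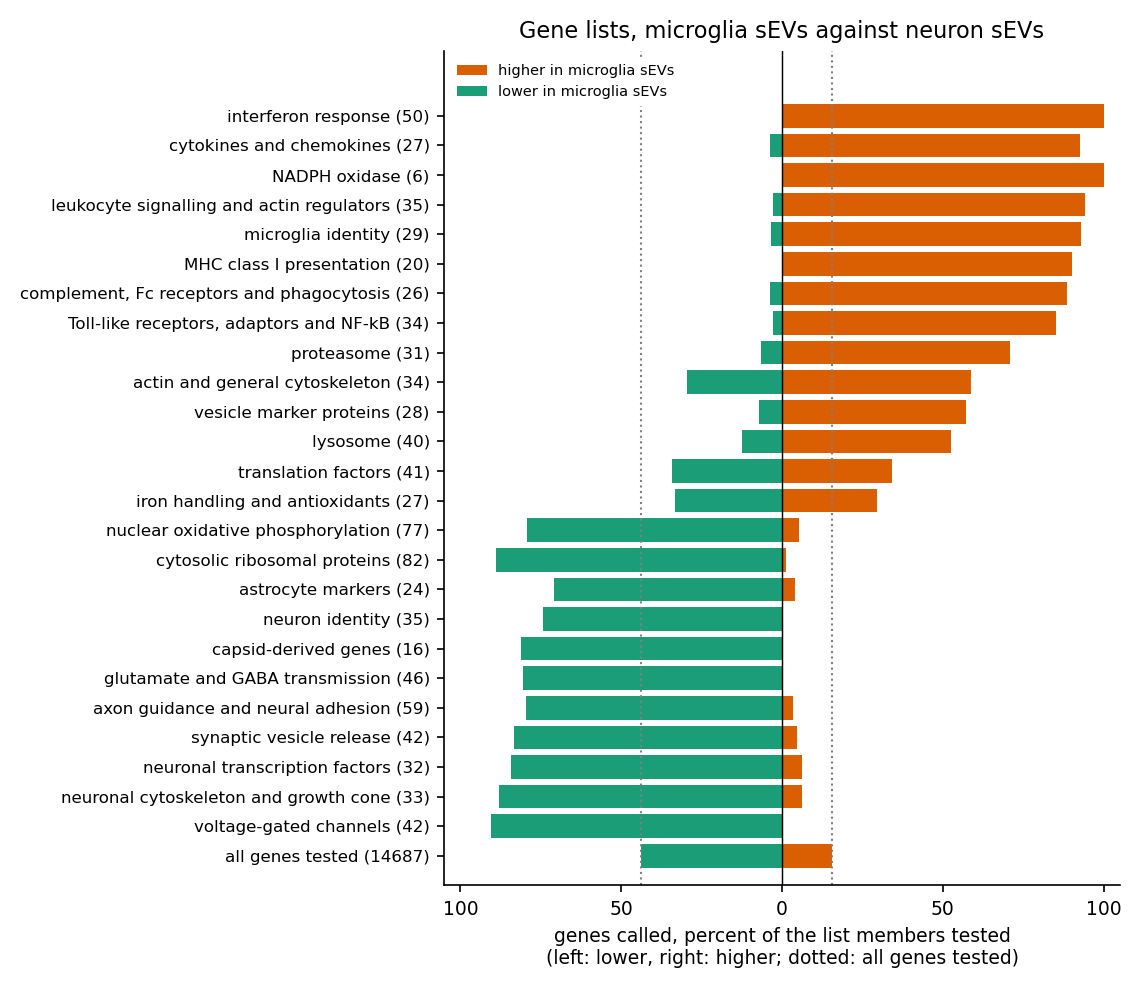
Share of the members tested that were called higher (orange, to the right) or lower (green, to the left) in microglia sEVs against neuron sEVs, in percent, for 25 gene lists and for all genes tested; numbers in brackets are members tested and dotted lines mark the shares over all genes, 15.6% higher and 43.7% lower. The immune lists run to the right, with 50 of 50 interferon genes higher, and the neuronal, oxidative phosphorylation and ribosomal lists run to the left.

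Genes of the neuronal cytoskeleton and growth cone were lower in microglia sEVs in 29 of 33 members tested, with a median of -7.09 (-5.63 under quantile normalization), and 2 were higher. Of the 34 listed, 5 were at 0 in all 3 microglia sEV libraries, and the calls of those tested are a description only. Mapt, which encodes the microtubule protein tau, had 12.8, 1.06 and 232 normalized counts in microglia sEVs, against 81549, 109078 and 50318 in neuron sEVs (log2 difference -11.99 ± 1.74, adjusted p = 0.00193). Crmp1, Map6 and Nefl, which encode a semaphorin signalling protein, a microtubule stabilizer and the light neurofilament, were listed at 0 in all 3 microglia sEV libraries. In neuron sEVs their lowest libraries had 6592, 7854 and 4307 normalized counts. The members that rose were Marcks and Marcksl1, which encode actin-binding substrates of protein kinase C that macrophages also use, by 1.48 ± 0.28 and 3.09 ± 0.17 on the log2 scale.

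Synaptic genes were mostly lower in microglia sEVs. Of 42 genes of synaptic vesicle release tested, 35 were lower and 2 higher (28 and 2 under quantile normalization), and of 46 genes of glutamate and GABA transmission 37 were lower and none higher (22 and none). Of 42 voltage-gated channel genes 38 were lower and none higher (25 and 3). Of all genes tested 43.7% were lower. Many members were at 0 in all 3 microglia sEV libraries: 16 of the 43 release genes listed, 27 of 49 transmission genes and 30 of 46 channel genes. Those of them tested passed the filter only through the neuron sEV libraries, so their calls are a description only. Bsn, which encodes the active zone scaffold bassoon, was listed at 0 in microglia sEVs and had 14642, 13073 and 9693 normalized counts in neuron sEVs. Rims1 and Unc13a, which prime vesicles for release, were listed at 0 as well, with 2188 to 2340 and 383 to 588 normalized counts in neuron sEVs. So were Dlgap1, a postsynaptic scaffold gene with 2440 to 3557 in neuron sEVs, and Kcna2, a potassium channel gene with 3857 to 4379. The genes that rose were Syngr1 and Synj1, which encode synaptogyrin and a lipid phosphatase of endocytosis, by 2.44 ± 0.25 and 1.26 ± 0.24.

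Axon guidance and neural adhesion genes were lower in 47 of 59 members tested and higher in 2 (31 and 3 under quantile normalization). Of the 67 listed, 40 were at 0 in all 3 microglia sEV libraries, and the calls of those tested are a description only. Nlgn3, which encodes a synaptic adhesion molecule, was listed at 0 in microglia sEVs and had 5108, 5852 and 4979 normalized counts in neuron sEVs. The 2 that rose, Nrp1 and Nrp2, encode neuropilins, receptors of semaphorins and of vascular growth factors. Nrp2 had 3697, 4312 and 4848 normalized counts in microglia sEVs, against 472, 365 and 262 (log2 difference 3.58 ± 0.33, adjusted p = 2.47e-04).

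Among neuronal transcription factor genes 27 of 32 tested were lower and 2 higher, and among neuronal RNA-binding protein genes 18 of 29 were lower and 3 higher. Under quantile normalization 17 of the transcription factor genes were lower and 2 higher, and 12 of the RNA-binding protein genes were lower and 6 higher. In all 3 microglia sEV libraries 27 of the 42 transcription factor genes listed and 11 of the 30 RNA-binding protein genes were at 0. The calls of those tested are a description only. Bcl11b, a factor of deep cortical and striatal neurons, was listed at 0 in microglia sEVs and had 5917, 6165 and 4982 normalized counts in neuron sEVs. Zeb2 and Foxp1, factors that macrophages also use, were higher by 3.24 ± 0.24 and 0.89 ± 0.25 (Foxp1 adjusted p = 0.0263, and 0.069 and 0.0753 without microglia sEV replicates 2 and 3). The 3 RNA-binding protein genes that rose were Igf2bp2, Igf2bp3 and Cpeb4. Igf2bp2 and Igf2bp3 encode proteins that bind and stabilize mRNAs, and Cpeb4 one that controls poly(A) tails. Cpeb4 had an adjusted p of 0.0197, and of 0.0596 and 0.0678 without neuron sEV replicates 1 and 3. Igf2bp2 had 2806, 4661 and 7328 normalized counts in microglia sEVs, against 218, 50.1 and 19.4 (log2 difference 6.23 ± 0.98), while its relative Igf2bp1 was listed at 0 in microglia sEVs and had 122, 119 and 70.9 in neuron sEVs (adjusted p = 0.859 under quantile normalization).

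Genes derived from retrotransposon capsids, whose best known member Arc can form capsids that carry RNA between neurons, were lower in 13 of 16 members tested and higher in none (7 lower and 1 higher under quantile normalization). Of all genes tested 43.7% were lower, and 3583 of 14687 under quantile normalization. Of the 19 capsid-derived genes listed, 10 were at 0 in all 3 microglia sEV libraries, and the calls of those tested are a description only. Arc itself was listed at 0 in microglia sEVs and had 188, 197 and 303 normalized counts in neuron sEVs. Its call was not kept under quantile normalization (adjusted p = 0.146). Pnma8b, of the paraneoplastic antigen family, was listed at 0 in microglia sEVs and had 2891, 2070 and 1846 in neuron sEVs.

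A few transcripts took large shares of each library. Ftl1, the ferritin light chain gene, had 2488596, 2138478 and 2738143 normalized counts in microglia sEVs, against 5575237, 8197079 and 6664127 in neuron sEVs, which is at least 3.95% of each microglia sEV library and 10.5 to 15.2% of the neuron sEV libraries. Its log2 difference was -1.46 ± 0.16 (adjusted p = 6.30e-04) and 0 by construction under quantile normalization, since it ranked first in all 6 libraries. Fth1, the heavy chain gene of the same iron store, went the other way, with 997513, 842090 and 913276 normalized counts in microglia sEVs, against 407459, 352617 and 354569 (2.47-fold higher, adjusted p = 5.47e-05). Both ferritin genes have processed copies in the genome, so reads may be shared with them.

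Cep85, which encodes a centrosomal protein, had 1066830, 1053358 and 943197 normalized counts in microglia sEVs, against 4429, 4267 and 8631 in neuron sEVs (log2 difference 7.54 ± 0.29, adjusted p = 1.25e-05). In microglia cells it had 3430 to 4339 normalized counts. Rcc2, a regulator of chromosome condensation, was the counterpart in neuron sEVs, with 887, 1686 and 488 in microglia sEVs, against 321434, 280455 and 277602 (log2 difference -8.34 ± 0.45, adjusted p = 2.53e-05), and neuron cells had 1006 to 1478. Gm42047, a predicted gene, had 989, 27896 and 5120 in microglia sEVs, against 3847661, 2954073 and 3108465. The groups did not overlap for these transcripts, and for Gm42047 the microglia sEV libraries spread the most. Leaving Ftl1, Rcc2 and Cep85 out of the library totals gave 2136 genes higher and 6631 lower. Gm42047 stayed in these totals, and a scaling without it was not run.

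Other large differences named neuronal or broadly expressed genes. Enah, an actin regulator gene of growth cones, had 0.885, 25.6 and 1.8 normalized counts in microglia sEVs, against 24873, 31212 and 28716 in neuron sEVs (log2 difference -12.40 ± 1.09, adjusted p = 2.09e-04), the largest fall among named genes above 0 in all 6 libraries. Nfix, a transcription factor of neural development, had 1.81, 309 and 5.15, against 33511, 22464 and 21434. Ip6k1, an inositol phosphate kinase gene, had 11.5, 301 and 29.1, against 19424, 19186 and 19323. Mmd2, a membrane receptor family gene, and Septin3, a septin gene of neurons, were listed at 0 in microglia sEVs with 20127 to 48589 and 20478 to 33669 normalized counts in neuron sEVs. On the other side, Igf1, the growth factor gene, had 147955, 109996 and 117788 normalized counts in microglia sEVs, against 73.4, 43.7 and 63.5 (log2 difference 11.02 ± 0.27, adjusted p = 1.25e-05). Lgals3, the galectin gene of activated microglia, had 159330, 141231 and 168098, against 46, 26.2 and 61.1.

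Ribosomal protein mRNAs, which encode the protein part of the cytosolic ribosome, were lower in microglia sEVs in 73 of 82 genes and higher in 1, with a median log2 difference of -1.64 (75 lower, 1 higher and -1.82 under quantile normalization). They took 1.99 to 2.16% of the microglia sEV libraries and 6.94 to 9.34% of the neuron sEV libraries. Rps2 had 27027, 23595 and 24434 normalized counts in microglia sEVs, against 631212, 536990 and 478691 in neuron sEVs (log2 difference -4.45 ± 0.11, adjusted p = 1.25e-05), and Rpsa, also of the small subunit, fell by 4.45 ± 0.11 as well. Rplp0, of the ribosomal stalk, had 63003, 64303 and 73910, against 435693, 410275 and 392365 (log2 difference -2.62 ± 0.07). The gene that rose was Rps27l, a paralog regulated by p53, with 10180, 9757 and 9272 normalized counts, against 3797, 3541 and 4553 (2.46-fold higher, adjusted p = 5.96e-04). Ribosomal protein genes have many processed pseudogenes, and how reads were shared among copies is not known here.

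**Figure D4:**
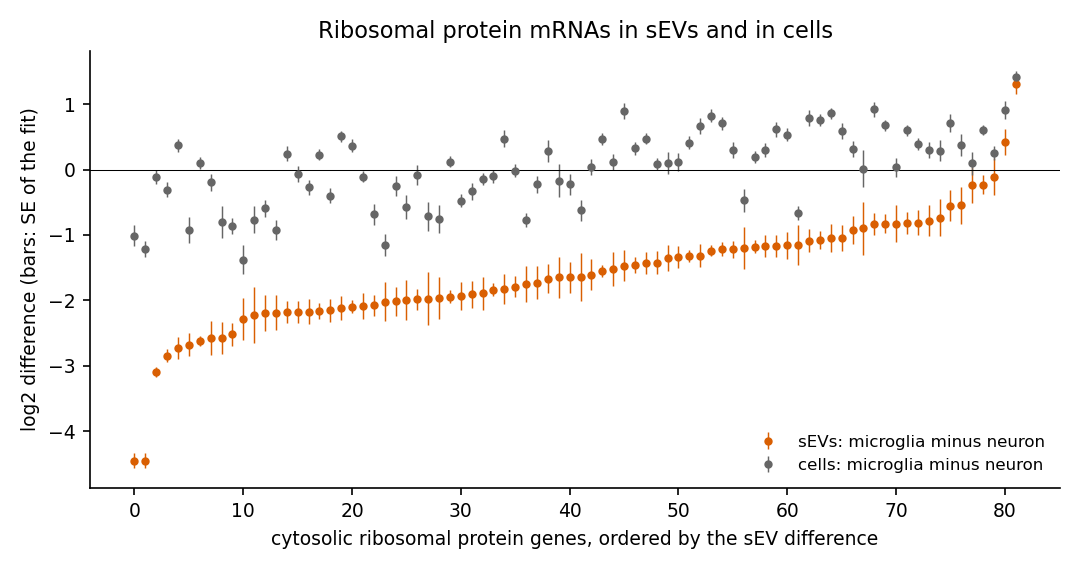
Log2 difference between microglia and neurons for each of the 82 cytosolic ribosomal protein genes, in sEVs (orange) and in the cells (grey), with the SE of the fit as bars; genes are ordered along the horizontal axis by the sEV difference. In sEVs 73 genes were called lower and 1 higher, while in the cells the points straddle 0, with 28 called higher and 19 lower as deposited (1 higher and 56 lower with equal totals).

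Translation factors were called in both directions, 14 of 41 tested being higher and 14 lower, beside 15.6% higher and 43.7% lower of all genes tested. Eef1a1 and Eef2, which encode elongation factors, had 179102 to 221825 and 21469 to 27231 normalized counts in microglia sEVs, against 521696 to 561877 and 112212 to 117227 in neuron sEVs. Eef1a1 fell by 1.46 ± 0.09 and Eef2 fell by 2.29 ± 0.10 on the log2 scale. Eif2s1, an initiation factor gene, went the other way, with 24050, 22926 and 22870, against 1537, 1345 and 1753 (log2 difference 3.92 ± 0.14).

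Nuclear genes of oxidative phosphorylation, the respiratory chain of mitochondria, were lower in 61 of 77 members tested and higher in 4, with a median of -1.50 (-1.65 under quantile normalization). Atp5g1, a subunit gene of ATP synthase, had 7434, 9293 and 10482 normalized counts in microglia sEVs, against 63976, 44578 and 66809 in neuron sEVs (log2 difference -2.68 ± 0.21, adjusted p = 1.23e-04). Of 14 mitochondrially encoded genes tested, 2 were lower, the ribosomal RNA genes mt-Rnr1 and mt-Rnr2, with log2 differences of -3.62 ± 0.66 and -2.19 ± 0.66. Of all genes tested 43.7% were lower. For mt-Rnr2 the adjusted p was 0.0339, and 0.0824 to 0.119 without microglia sEV replicate 1 or 3 or neuron sEV replicate 1 or 3. Mitochondrially encoded RNA made up 0.0614, 0.222 and 0.138% of the microglia sEV libraries and 0.410, 0.107 and 0.434% of the neuron sEV libraries, which overlap (exact permutation test, p = 0.3, adjusted p = 0.318 over the 18 measures).

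Proteasome subunit genes were higher in microglia sEVs in 22 of 31 members and lower in 2, with a median of 1.33. Psma6, a subunit gene of the core particle, had 27191, 33954 and 30443 normalized counts in microglia sEVs, against 4169, 3125 and 3755 in neuron sEVs (log2 difference 3.05 ± 0.15, adjusted p = 1.92e-05). Of 34 actin and general cytoskeleton genes tested, 20 were higher and 10 lower. Both lists stand beside 15.6% higher and 43.7% lower of all genes tested. Pfn1, which encodes the actin-binding protein profilin, had 108404, 112007 and 121150, against 11974, 11518 and 12766 (log2 difference 3.24 ± 0.07). Arpc1b, of the Arp2/3 complex that branches actin, had 113422 to 167687 normalized counts, against 4420 to 4782.

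mRNAs of proteins used as vesicle markers were higher in 16 of 28 members tested and lower in 2. Of all genes tested 15.6% were higher and 43.7% lower. Cd63, which encodes the tetraspanin of late endosomes, had 52868, 38176 and 39876 normalized counts in microglia sEVs, against 1040, 1927 and 1129 in neuron sEVs (log2 difference 5.04 ± 0.29, adjusted p = 3.14e-05). Sdcbp, the gene of syntenin, had 157656, 157701 and 173599, against 3176, 5134 and 4396 (log2 difference 5.29 ± 0.19). Cd9, another tetraspanin gene, rose by 3.12 ± 0.54. For Cd81 the libraries were closer, with 22096, 12194 and 14976, against 6469, 11186 and 8456. Its adjusted p was 0.0454 with all libraries and 0.0862 to 0.132 without microglia sEV replicate 1 or 3 or neuron sEV replicate 1 or 3. The members that fell were Rab27b, a secretion GTPase gene, listed at 0 in microglia sEVs with 372 to 733 in neuron sEVs, and Flot2, a membrane raft gene, which fell by 2.83 ± 0.62 on the log2 scale. These are mRNA values, and the amounts of the proteins in the vesicles were not measured.

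The source cells were set beside the vesicles to see which differences the cells shared. Microglia cells against neuron cells, in a fit of their own 6 libraries, gave 3636 genes higher (21.1%) and 8871 lower (51.5%) of 17237 tested. Of the 14088 genes tested in both comparisons, 1913 were higher in both, 4830 were lower in both, 65 were higher in sEVs and lower in cells, and 150 were lower in sEVs and higher in cells. With each library scaled to the same total these last counts were 246 and 65, and with quantile normalization 180 and 194. Across these genes the log2 differences correlated at r = 0.84 and rho = 0.82, a description over genes of the same libraries. All 50 interferon genes were higher in microglia cells too, and all 35 neuron identity genes were lower. Of the 82 ribosomal protein genes 28 were higher and 19 lower in microglia cells, with a median log2 difference of 0.10. This depended on the scaling, since with equal totals 1 was higher and 56 were lower, with a median of -0.56. The summed normalized counts were 65071835 to 69276566 in microglia cell libraries, against 41683285 to 43638426 in neuron cell libraries, and ribosomal protein genes took 0.844% ± 0.0762 of the microglia cell libraries and 1.17% ± 0.0318 of the neuron cell libraries (SD, n = 3 each).

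**Figure D5:**
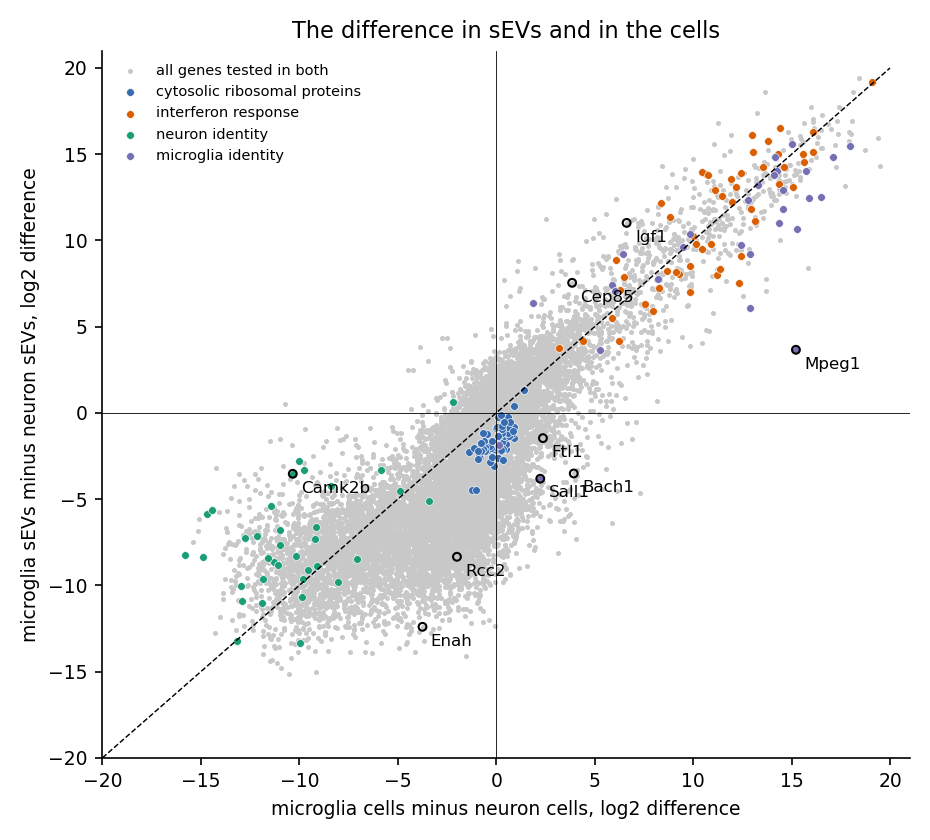
Log2 difference, microglia minus neuron, in sEVs (vertical axis) and in cells (horizontal axis) for the genes tested in both; the dashed line marks equal differences. Interferon and neuron genes follow the diagonal loosely, ribosomal protein genes sit below it near 0 on the horizontal axis, and Enah, Rcc2, Mpeg1, Bach1, Sall1 and Ftl1 lie below and Camk2b, Igf1 and Cep85 above it.

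The difference between the sEV difference and the cell difference was tested in a fit of all 12 libraries. It was above 0 in 1777 genes (9.57%) and below 0 in 2764 (14.9%) of 18572 tested. The larger side turned with the scaling: with equal totals 2707 genes were above 0 and 2105 below, and with quantile normalization 2882 above and 2334 below. Of the ribosomal protein genes 66 of 82 had a lower difference in sEVs than in cells and none a higher one (51 and none with equal totals, 75 and none with quantile normalization). Rplp0 is an example, at -2.62 in sEVs and 0.10 in cells (difference of differences -2.73 ± 0.11, adjusted p = 2.45e-06). Proteasome genes went the other way, 16 of 31 being above the cell difference and 1 below (24 and none with equal totals). Of the 50 interferon genes 1 was above and 3 were below (3 and 1 with equal totals), and of the 35 neuron identity genes 9 were above and 1 was below (18 and none with quantile normalization). Of 34 microglia identity genes none was above and 10 were below (1 and 8 with equal totals, 2 and 12 with quantile normalization). The microglia identity list made up 1.49 to 1.83% of the microglia sEV libraries and 3.68 to 3.83% of the microglia cell libraries. Camk2b, a calcium-dependent kinase gene of neurons, had 743, 637 and 901 normalized counts in microglia sEVs, against 9908, 9099 and 7308 in neuron sEVs, and 23.6, 0 and 13.1 in microglia cells, against 10021, 8552 and 8711 in neuron cells.

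Ftl1 was lower in microglia sEVs than in neuron sEVs but higher in microglia cells than in neuron cells, by 2.37 ± 0.12 on the log2 scale. Among the genes called in opposite directions and named by their size were Bach1 and Kremen1 (which lost its sEV call under quantile normalization, adjusted p = 0.0923), lower in sEVs and higher in cells, and Serinc1 and Acsl4, higher in sEVs and lower in cells. Bach1, a repressor of iron and heme genes, had 1812, 456 and 395 normalized counts in microglia sEVs, against 7726, 8853 and 7109 in neuron sEVs, and 1910, 1802 and 1445 in microglia cells, against 192, 75.6 and 92.9 in neuron cells. Acsl4, which activates long-chain fatty acids, had 2430, 5490 and 4308 in microglia sEVs, against 422, 467 and 529 in neuron sEVs, and 4122, 4877 and 4547 in microglia cells, against 10628, 13208 and 9749 in neuron cells. All 3 libraries of each group stood apart from those of the group they were set against. The test of the difference itself gave -7.45 ± 0.80 for Bach1 (adjusted p = 9.71e-05) and 4.33 ± 0.39 for Acsl4 (adjusted p = 3.69e-05).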

How the data were processed

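Poly(A) RNA was primed with oligo-dT in a low-input cDNA kit, amplified with 15 PCR cycles and tagmented, per the labels' protocols. The kit does not mark strand, so a gene and an antisense neighbour cannot be told apart. The authors deposited 1 table of normalized counts (signal values) per gene and library. Reads were quantified with Salmon 1.8.0 on GRCm39 and normalized with DESeq2, per the submitters' processing notes. Within 0.001, only 1.52 to 3.61% of values below 100 were whole multiples of a library's commonest value, so read depth is unknown and no count model was run.

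Log2 of the value plus 1 was fitted with limma 3.58.1 (trend) in R 4.3.3, and p-values were Benjamini-Hochberg adjusted over all genes of a comparison. A gene was called at an adjusted p under 0.05, and errors are SEs of the fit. The difference of differences used 12 libraries and genes at 10 or more in 3 of them. A log2 value of a gene listed at 0 in some libraries rests in part on the pseudocount, and list medians include such genes.

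The deposited microglia sEV mean was not used, because in all 18481 genes with a value it equals the mean of replicates 1 and 2 and of replicate 3 of the next row, within 0.01 plus 0.01%. It equals the mean of its own row in 1477. Blank symbols were filled by Ensembl identifier (19622 of 21793), and mitochondrial genes are named by that table.

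Genes were named by rule: the 12 largest rises and falls among called genes above 0 in all 6 libraries without overlap and averaging 500 or more in the higher group, 6 called genes at 0 in either group, the 8 with the most counts per group, 6 per direction for opposite calls and for the difference of differences, and up to 4 or 8 members per list by smallest p. Members outside it, such as Csf1r, Stmn2, Gfap, Tnf and Mag, were chosen after their values were seen. The comparison, lists and tests were chosen with earlier results of these data known. The main fits did not pair libraries by replicate number. Alternatives were scaling, pseudocount, filter, library weights, all 9 sEV libraries, a replicate block and leaving out each library. The values of 1 gene are not reported here.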

Additional observations from a re-analysis of the deposited data

Results flagged for a closer look

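Each result here is a difference between the sEV contrast and the cell contrast that passed the test of the difference itself (limma, 12 libraries, adjusted p under 0.05). It was above 0 in 1777 genes and below 0 in 2764, against 2707 and 2105 with equal totals and 2882 and 2334 with quantile normalization. It was below 0 in 66 of 82 ribosomal protein genes, and in 51 with equal totals.

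Among genes called in opposite directions, those higher in microglia sEVs and lower in microglia cells had log2 differences of differences of 4.51 for Prdm10, a zinc finger gene, 3.88 for Serinc1, a serine incorporator gene, 4.41 for Creb3l1, a transcription factor of secretion, 2.90 for Nptn, an adhesion protein gene, 4.33 for Acsl4 and 3.22 for Dimt1, a ribosomal RNA methyltransferase gene. Those lower in microglia sEVs and higher in microglia cells had -7.45 for Bach1, -5.75 for Kremen1, a receptor of the Wnt inhibitor Dickkopf, -6.15 for Susd6, -4.78 for Trim56, a ubiquitin ligase gene of antiviral signalling, -6.08 for Slc26a2, a sulfate transporter gene, and -6.41 for Spata13, a guanine exchange factor gene. Ftl1 had -3.83. The opposite sEV call was lost for Prdm10, Creb3l1, Nptn, Dimt1, Susd6 and Slc26a2 without at least 1 of the sEV libraries (adjusted p from 0.0509 to 0.135).

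Among called genes above 0 in all 12 libraries and averaging at least 500 in a group, the largest values were 6.28 for Atl1, a gene of endoplasmic reticulum fusion, 6.09 for Kcnab1, a potassium channel subunit gene, 5.63 for Gpm6a, a neuronal membrane glycoprotein gene, 5.52 for Sparcl1, a matrix protein gene, 4.67 for Bbs5, a cilium gene, and 4.52 for Shq1, a gene of small nucleolar particles. On the other side were -8.66 for Enah, -8.40 for Plekho2, -7.91 for S1pr2, a sphingosine phosphate receptor gene, -7.23 for Rgl2, a Ral exchange factor gene, and -7.20 for Tmem245. The Shq1 value lost its call when any of 9 of the 12 libraries was left out. Microglia sEV libraries spread widely for several of these genes: Gpm6a had 194, 1241 and 2942 normalized counts in microglia sEVs, against 15869, 9041 and 11818 in neuron sEVs. What lies behind these differences was not tested.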

How the results depend on the processing

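Counts of genes higher and lower stayed within 1.5 times of 2291 and 6421 under each alternative run except quantile normalization, which gave 3621 and 3583. Of these, 2247 and 3391 were called in the same direction as deposited. That setting gives the tested genes at 0 in a microglia sEV library (4578 to 6481 of them) a log2 value of 3.12 to 3.54, against 0 in neuron sEVs. It also gave 5573 and 5548 for the cells (3636 and 8871 as deposited) and 2882 genes above 0 and 2334 below for the difference of differences, where equal totals gave 2707 and 2105, against 1777 and 2764 as deposited, so the larger side turned. Equal totals in the cells, added after seeing the data, gave 2641 higher and 10995 lower. Without each sEV library in turn, 1987 to 2400 genes were higher and 5122 to 6764 lower, and the median of -2.89 became -2.19 without microglia sEV replicate 1, the library with the fewest genes. The replicate block gave 2007 higher and 5924 lower. In the main fits libraries were not paired by replicate number. The correlation of same-numbered deviations was -0.002 to 0.031 between the sEV groups. Between sEVs and their own cells it was 0.015 to 0.086, all 6 values being above 0 and under 0.1. Libraries of other numbers gave -0.072 to 0.027 there, so a weak pairing of sEVs with their own cells was not excluded. For the difference of differences the block gave 1646 above 0 and 2560 below. Log2 differences that turned sign under quantile normalization were 0.61 for H2-Eb1, 1.06 for Cacna2d2, 0.67 for Cartpt, 1.02 for Cort, 0.21 for Nmb, 0.62 for Dlx2, 0.73 for Fbln1, 0.35 for Islr, 0.75 for Ogn, 0.82 for Notch3, 0.68 for Hba-a1, 0.66 for Npas4, 0.32 for Nr4a1 and 0.0009 for Scarb2. A turn of sign was counted only for genes called as deposited or under the alternative. Apart from these, named genes over all alternatives stayed called or not called in 4564 values, lost the call in 171 and gained it in 21. The cause was not tested. Unknown read depth and the many zeros of microglia sEVs limit what can be said of genes listed at 0.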

Other observations

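Some gene groups had members called in both directions, beside 15.6% higher and 43.7% lower of all genes tested. Of 20 glycolysis genes tested, 9 were higher in microglia sEVs and 6 lower. Hk3, the hexokinase gene of myeloid cells, had 8718, 10090 and 7920 normalized counts in microglia sEVs and was listed at 0 in neuron sEVs, and Aldoa, the aldolase gene of most tissues, had 65542, 59135 and 86745, against 19623, 17567 and 20373 (log2 difference 1.86 ± 0.16, adjusted p = 1.78e-04). Ldhb, a lactate dehydrogenase gene of oxidative tissues, fell by 2.38 ± 0.19 on the log2 scale. Of 27 iron handling and antioxidant genes tested, 8 were higher and 9 lower. Sod2, the superoxide dismutase gene of mitochondria, had 186444, 190914 and 177868 normalized counts in microglia sEVs, against 5154, 5110 and 5068 in neuron sEVs (log2 difference 5.18 ± 0.05, adjusted p = 5.76e-06), and Prdx1, a peroxiredoxin gene, rose by 5.01 ± 0.13. Prdx6, another peroxiredoxin gene, had 6105, 5259 and 6288, against 36087, 41540 and 51239.

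Of 22 immediate early genes tested, 6 were higher and 8 lower, and 12 were higher and 1 lower under quantile normalization, so no direction is given for the list. Atf3, a stress-induced transcription factor gene, had 43036, 43153 and 37677 normalized counts in microglia sEVs, against 326, 217 and 489 in neuron sEVs (log2 difference 6.98 ± 0.32). Nuclear long noncoding RNAs were lower in 8 of 14 members tested and higher in none, beside 43.7% of all genes tested lower, and in 6 and none under quantile normalization. Malat1, which stays in nuclear speckles, had 2859, 2740 and 1660 normalized counts in microglia sEVs, against 14051, 8578 and 17142 in neuron sEVs (log2 difference -2.44 ± 0.35, adjusted p = 0.00192).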
